A study of Homo sapiens with 6 samples.

Results

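Lactate dehydrogenases and the carriers of lactate and pyruvate were followed as 9 genes: LDHA, LDHB and LDHD, the monocarboxylate transporter genes SLC16A1, SLC16A3 and SLC16A7, the transporter chaperone gene BSG, and the mitochondrial pyruvate carrier genes MPC1 and MPC2. They were chosen by symbol for their place in lactate and pyruvate metabolism, and all 9 of 9 were among the 38557 gene rows of each library. The libraries came from cardiomyocytes derived from WTC11, an established line of human induced pluripotent stem cells, labelled WT in every library. Cells had been kept in RPMI plus B27, a serum-free supplement (RPMI in what follows), or in DMEM plus fatty acids (DMEM), with 3 biological replicates in each medium numbered 1 to 3. Neither the glucose, lactate, pyruvate and fatty acid content of the media nor the time in culture is stated in the labels, which also do not say whether the replicates were separate differentiations. The p-values therefore measure the spread between these libraries, which all come from 1 cell line.

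Lactate dehydrogenase is a tetramer that interconverts pyruvate and lactate with NADH. Its muscle-type subunit, encoded by LDHA, predominates in glycolytic tissue, and its heart-type subunit, encoded by LDHB, predominates in the adult myocardium, which takes up lactate and oxidises it. LDHD is a separate mitochondrial enzyme that acts on D-lactate. Lactate crosses the plasma membrane through proton-coupled monocarboxylate transporters, which reach the cell surface with basigin (BSG), and pyruvate enters the mitochondrial matrix through a carrier made of MPC1 and MPC2 subunits. LDHA and SLC16A3 are well-known targets of hypoxia-inducible factor (HIF).

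The promoters of LDHA, SLC16A3, LDHB and BSG are shown because the first pair had the largest decreases among the 9 genes in DMEM and the other pair had values close to 0 on the log2 scale. RefSeq promoter sequences on GRCh38.p14 were matched for 7 of the 9 genes in 16 windows, each the 250 bases before an annotated start. LDHD and SLC16A1 were not matched. Capitals mark the cores of the HIF response element, ACGTG or GCGTG, on either strand; CACGTG, the E-box bound by MYC and related factors, holds ACGTG on both strands and counts as 1 place.
LDHA, chr11:18394313-18394562, plus strand: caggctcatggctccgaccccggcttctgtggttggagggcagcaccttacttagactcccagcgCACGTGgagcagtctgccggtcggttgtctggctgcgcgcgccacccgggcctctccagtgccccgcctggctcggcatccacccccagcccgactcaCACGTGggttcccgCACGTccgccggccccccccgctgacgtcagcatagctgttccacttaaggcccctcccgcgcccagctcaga
SLC16A3, chr17:82228792-82229041, plus strand: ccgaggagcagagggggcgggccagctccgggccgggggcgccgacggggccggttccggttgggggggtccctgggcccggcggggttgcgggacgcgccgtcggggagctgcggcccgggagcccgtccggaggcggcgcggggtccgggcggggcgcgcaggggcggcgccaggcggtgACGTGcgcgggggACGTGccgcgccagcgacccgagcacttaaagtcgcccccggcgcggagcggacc
LDHB, chr12:21657843-21658092, minus strand: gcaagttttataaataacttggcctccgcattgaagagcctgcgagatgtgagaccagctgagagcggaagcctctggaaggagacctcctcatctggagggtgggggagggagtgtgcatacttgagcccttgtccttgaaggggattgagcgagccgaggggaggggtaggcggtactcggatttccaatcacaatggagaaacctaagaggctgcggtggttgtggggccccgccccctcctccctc
BSG, chr19:572346-572595, plus strand: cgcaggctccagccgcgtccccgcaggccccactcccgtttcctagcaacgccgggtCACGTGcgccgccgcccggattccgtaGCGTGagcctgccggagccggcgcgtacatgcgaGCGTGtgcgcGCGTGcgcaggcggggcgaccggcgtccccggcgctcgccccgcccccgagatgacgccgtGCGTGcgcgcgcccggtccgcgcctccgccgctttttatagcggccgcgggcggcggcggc

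For LDHA, SLC16A3 and BSG, which had 2, 5 and 2 windows, the window with the most ACGTG places was chosen for printing, so the shares of all windows given beside them do not allow for that choice. The LDHA window held ACGTG at 3 places, 2 of them as CACGTG, which began 185, 87 and 73 bases before the start. Of all 35116 promoter windows, 0.35% held ACGTG at 3 or more places and 5.56% held either form at 3 or more. The other LDHA window held GCGTG at 1 place. The SLC16A3 window held ACGTG at 2 places, 68 and 55 bases before the start, where 2.61% of all windows held ACGTG and 16.2% held either form at 2 or more. Another SLC16A3 window held GCGTG at 3 places, more than the printed window by either form. A further one held GCGTG at 1 place, and the remaining SLC16A3 windows had neither form. No core of either form was in the LDHB window, whereas 43.2% of all windows held at least 1. The BSG window held 5 places with either form, 1 of them ACGTG, where 0.629% of all windows held at least 5 of either form and 18.5% held ACGTG at least once. By either form the BSG window was thus the rarest of the windows shown, while by ACGTG alone the LDHA window was. Whether these cores relate to the difference between media was not tested. The other BSG window had neither form. MPC1, whose window is not printed, had GCGTG at 2 places, while SLC16A7 and MPC2 had no core of either form in their 2 and 3 windows. AAGGTCA, a motif of the oestrogen-related receptors, was in none of the 16 windows and in 3.44% of all windows. These matches describe letters in the reference and say nothing of binding in these cells.

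Libraries held 23232324 to 31035389 counts in gene rows, and 16107 genes passed the filter on low counts, including all 9 genes described here. Levels are given as CPM, read counts relative to library size after scaling by the trimmed mean of M-values (TMM). Summed over 12 cardiomyocyte markers, levels were 26670 to 33424 CPM in RPMI and 22141 to 28277 CPM in DMEM. Within this sum, means in RPMI and DMEM were 9638 ± 3231 and 4000 ± 1862 CPM for MYH7. They were 2218 ± 474 and 1109 ± 380 CPM for ACTN2, and 4758 ± 1119 and 8653 ± 1931 CPM for MYH6 (SD, n = 3 each). On the log2 scale 6 of the 12 were higher in DMEM and 6 lower. Their tests are given with the processing. The 6 markers of undifferentiated cells summed to 17.4 to 62.0 CPM over the 6 libraries, of which TDGF1 alone was 14.6 to 61.4 CPM. Markers of other cell types were not equal between media: 12 fibroblast and stromal markers summed to 4338 to 8406 CPM in RPMI and 758 to 1957 CPM in DMEM. The measurements are of bulk RNA, so fewer cells of a type and less RNA per cell cannot be told apart.

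LDHA was the member that fell in DMEM by the test over all genes. Transcripts for the muscle-type subunit (chromosome 11, 18394388 to 18408425, GENCODE v29 on GRCh38) stood at 1967, 1069.6 and 1115 CPM in replicates 1 to 3 in RPMI. In DMEM they stood at 394, 229 and 242 CPM. Every RPMI library was above every DMEM library, and replicate 1 was the highest of its medium in both. Mean LDHA thus went from 1384 ± 506 to 288 ± 91.8 CPM (SD, n = 3 each), a fitted 4.80-fold decrease (log2 fold change -2.26 ± 0.32, SE, edgeR quasi-likelihood test, adjusted p 0.0347). The log2 ratio between libraries of the same number was -2.32, -2.23 and -2.20 in replicates 1, 2 and 3, although the LDHA level itself differed between replicates of a medium. With the replicate number added to the model as a block, a pairing that the labels do not state, the change was -2.25 ± 0.14 (edgeR adjusted p 0.00582). The call without the block was held without RPMI replicate 3 (0.0469) and lost without any of the other 5 libraries (edgeR adjusted p 0.0559 to 0.115).

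LDHB, the heart-type subunit gene (chromosome 12, 21635342 to 21757857), showed no such difference. Its level was 945, 844 and 804 CPM in RPMI and 875, 896 and 873 CPM in DMEM. All 3 DMEM values lay inside the range of the RPMI values, with means of 865 ± 72.7 and 881 ± 12.7 CPM (SD, n = 3 each). The fitted log2 fold change was 0.03 with a 95% interval of -0.28 to 0.33 (edgeR adjusted p 0.934). The sum of LDHA and LDHB was 1914 to 2912 CPM in RPMI and 1115 to 1269 CPM in DMEM, so the total was lower by about the amount that LDHA was lower.

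The composition of the LDHA and LDHB pool differed between media by more than the spread among replicates. LDHA made up 67.5%, 55.9% and 58.1% of the raw counts of both genes in RPMI (replicates 1 to 3) and 31.05%, 20.3% and 21.7% in DMEM. By raw counts, LDHA was the majority transcript in each RPMI library and the minority in each DMEM library. The mean share was 60.5% ± 6.19 against 24.4% ± 5.84 (SD, n = 3 each), with an exact two-sided permutation p of 0.1, the smallest that 3 against 3 can give (0.15 after Benjamini-Hochberg adjustment over 3 shares). Counting error was small beside this, since the 95% Wilson interval of the lowest share ran from 19.9% to 20.8% on 33657 counts. Within replicate numbers the share differed by -36.5, -35.6 and -36.4 percentage points, where the exact sign-flip test cannot give a p under 0.25. Counted per kilobase of principal transcript, the mean share was 53.2% ± 6.52 and 19.3% ± 4.96 (SD, n = 3 each). At that length LDHA was below LDHB in RPMI replicate 2 (556 and 594 CPM per kilobase). Counted per kilobase of all annotated exons, LDHA was the minority in RPMI as well, at 42.6% ± 6.49 against 13.5% ± 3.75, so which subunit leads in RPMI depends on the length used.

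**Figure D1:**
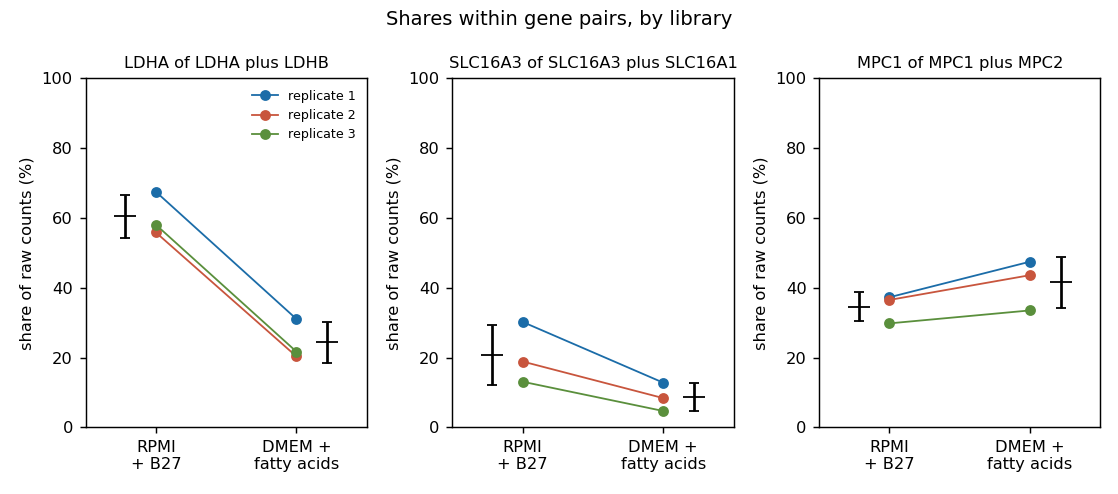
Share of raw counts (%, vertical axis) held by LDHA, SLC16A3 and MPC1 in their pairs with LDHB, SLC16A1 and MPC2, by medium. Points are libraries, lines join the same replicate number, and black marks are mean ± SD of 3 libraries; the 3 LDHA lines run almost parallel, from 55.9% to 67.5% down to 20.3% to 31.05%.

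LDHD, the D-lactate dehydrogenase gene (chromosome 16, 75111860 to 75116771), was the least abundant member in both media per kilobase of principal transcript at its median length. Its level was 9.60, 7.86 and 5.22 CPM in RPMI and 18.9, 15.1 and 11.5 CPM in DMEM. The media did not overlap, and DMEM was higher in each of the 3 replicate numbers. Means were 7.56 ± 2.21 and 15.2 ± 3.69 CPM (SD, n = 3 each), with a log2 fold change of 1.01 ± 0.28 that did not pass without the block (edgeR adjusted p 0.139) and passed with it (1.02 ± 0.16, edgeR adjusted p 0.0262). Of 4 genes of the methylglyoxal pathway, whose glyoxalases produce D-lactate, 0 passed by edgeR with or without the block, 0 by DESeq2 and 0 at an unadjusted p under 0.05 (median log2 fold change -0.13). GLO1, the first glyoxalase, had the smallest p of these, at 186 ± 3.21 and 160 ± 1.82 CPM (SD, n = 3 each, log2 fold change -0.22 ± 0.10, edgeR adjusted p 0.308), and HAGHL, a relative of the second glyoxalase, had 0.57 ± 0.31 (0.382).

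**Figure D2:**
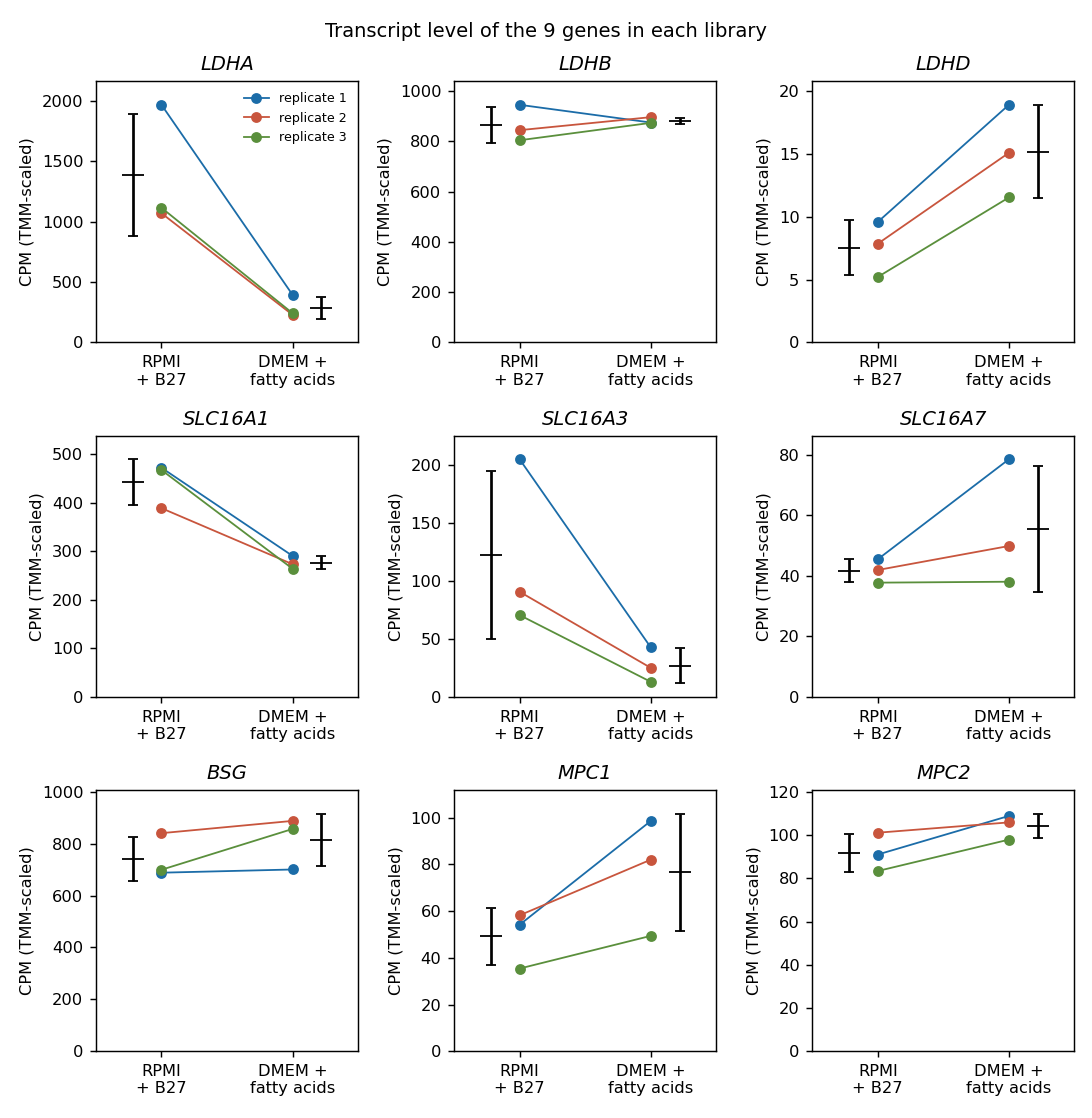
Level of each of the 9 genes (CPM, linear axis from 0) in RPMI and DMEM. Points are libraries, lines join the same replicate number, and black marks are mean ± SD of 3 libraries; LDHA, SLC16A1 and SLC16A3 are lower and LDHD is higher in all 3 DMEM libraries, while the other 5 genes overlap between media.

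Among the plasma membrane carriers, the lactate exporter gene SLC16A3 had a decrease about as large as LDHA with a wider spread. SLC16A3 encodes MCT4, the transporter of glycolytic cells (chromosome 17, 82228397 to 82261129). It stood at 205, 90.6 and 70.5 CPM in RPMI and at 42.7, 25.1 and 13.0 CPM in DMEM. The media did not overlap, and replicate 1 was again the highest of each medium. Means were 122 ± 72.4 and 26.9 ± 14.9 CPM (SD, n = 3 each). The log2 fold change of -2.18 had an SE of 0.53 without the block (edgeR adjusted p 0.0995) and 0.14 with it (-2.18, edgeR adjusted p 0.00613). Without RPMI replicate 1 the fold change was -1.58 (edgeR adjusted p 0.195). Part of SLC16A3 overlaps CSNK1D on the opposite strand, and the strand setting of the counting is not given in the sources used here.

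SLC16A1 encodes MCT1, a transporter of lactate and pyruvate in both directions that is found in the heart (chromosome 1, 112911847 to 112957013). It was measured at 473, 389 and 468 CPM in RPMI and at 291, 274 and 264 CPM in DMEM. Every DMEM library was lower, with means of 443 ± 46.8 and 276 ± 13.4 CPM (SD, n = 3 each). The fitted level was 1.60-fold lower (log2 fold change -0.68 ± 0.13), just short of the threshold without the block (edgeR adjusted p 0.0583) and past it with the block (-0.68 ± 0.12, edgeR adjusted p 0.0384). SLC16A1-AS1, on its opposite strand, was at 0.820 to 2.19 CPM (log2 fold change -0.47 ± 0.43, edgeR adjusted p 0.609).

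SLC16A3 made up 30.2%, 18.9% and 13.1% of the counts of SLC16A1 and SLC16A3 in RPMI, against 12.8%, 8.39% and 4.70% in DMEM. SLC16A1 was the larger of both in each library. The groups did not overlap, but RPMI replicate 3 and DMEM replicate 1 were close, with 95% Wilson intervals of 12.6% to 13.7% and 12.1% to 13.6%. The mean share differed by -12.1 percentage points (exact permutation p 0.1, adjusted 0.15 over 3 shares), and by -7.35 without RPMI replicate 1. Within replicate numbers it differed by -17.4, -10.5 and -8.39 points (exact sign-flip p 0.25).

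SLC16A7 encodes MCT2, a transporter with high affinity for pyruvate (chromosome 12, 59596067 to 59789855). Its level was 45.5, 42.0 and 37.8 CPM in RPMI and 78.6, 49.9 and 38.1 CPM in DMEM. The media overlapped, and the DMEM mean of 55.5 ± 20.8 CPM (SD, n = 3) rested largely on replicate 1. The log2 fold change was 0.41, with a 95% interval of -0.19 to 1.01 (edgeR adjusted p 0.446), and 0.07 without that library.

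BSG (chromosome 19, 571277 to 583493), the chaperone of the SLC16A1 and SLC16A3 products, overlapped between media. It was measured at 688, 840 and 699 CPM in RPMI and at 700.2, 887 and 856 CPM in DMEM. The 95% interval of the log2 fold change was -0.23 to 0.50 (0.13, edgeR adjusted p 0.701). There were 1.02, 1.75 and 1.299 BSG counts for each SLC16A1 or SLC16A3 count in RPMI and 2.10, 2.97 and 3.09 in DMEM.

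For the mitochondrial pyruvate carrier, MPC1 (chromosome 6, 166364919 to 166383013) had higher values in DMEM within each replicate number. It stood at 54.2, 58.2 and 35.4 CPM in RPMI and at 98.5, 82.0 and 49.4 CPM in DMEM. The media overlapped, and replicate 3 was the lowest library in both. The log2 fold change of 0.64 ± 0.28 did not pass without the block (edgeR adjusted p 0.301) and passed with it (0.61 ± 0.12, edgeR adjusted p 0.0455).

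MPC2 (chromosome 1, 167916729 to 167937040), the partner subunit, was at 91.0, 101.1 and 83.4 CPM in RPMI and at 109, 106 and 97.9 CPM in DMEM. Its media overlapped too, and its log2 fold change of 0.18 (95% interval -0.09 to 0.45) did not pass with or without the block (edgeR adjusted p 0.305 and 0.456). MPC2 overlaps DCAF6 on the opposite strand. The MPC1 share of MPC1 and MPC2 counts was 34.5% ± 4.12 in RPMI and 41.6% ± 7.21 in DMEM (SD, n = 3 each). The groups overlapped (exact permutation p 0.3, adjusted 0.3 over 3 shares), although the share was higher by 10.2, 7.11 and 3.72 points within replicates 1, 2 and 3.

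In all, 1 of the 9 genes passed without the block, where 1.36% of all 16107 genes tested did (1.07% lower and 0.292% higher), and 5 of 9 passed with it (LDHA, SLC16A1 and SLC16A3 lower, LDHD and MPC1 higher), where 4.78% did (3.42% lower and 1.36% higher). Of all genes called without the block, 47 were higher and 172 lower, and with scaling by total counts alone 74 were higher and 128 lower. By the DESeq2 Wald test 4 members passed, LDHA, SLC16A1 and SLC16A3 lower and LDHD higher, where it called 7.32% of all genes tested (5.02% lower and 2.3% higher). For 4 of 9 genes, 3 lower and 1 higher, the media did not overlap in CPM, where this held for 25.6% of all genes tested (12.8% in each direction). The genes share a subject and not a direction, with 3 below 0 and 6 above. These shares of all genes are the background for the counts in other lists below. At an unadjusted p under 0.05 the share of all genes was 17.7%.

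**Figure D3:**
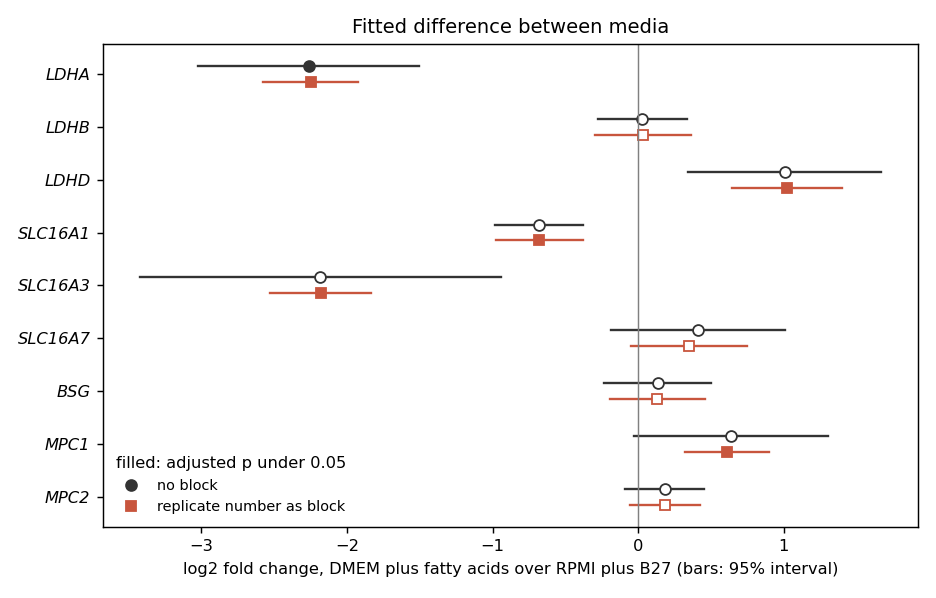
Fitted log2 fold change of each gene (horizontal axis, DMEM relative to RPMI) with its 95% interval, from the fit without a block (circles) and from the blocked fit (squares). Filled symbols have an adjusted p under 0.05: LDHA in both fits, and LDHD, SLC16A1, SLC16A3 and MPC1 with the block alone.

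The order of abundance of the 9 genes differed between media when levels were divided by the median length of each gene's principal transcripts. In RPMI, LDHA (720 ± 263 CPM per kilobase) and LDHB (609 ± 51.2) came first with overlapping ranges, followed by BSG (376 ± 42.9) and SLC16A1 (107 ± 11.3). MPC2 (61.8 ± 5.97), SLC16A3 (59.2 ± 35.1) and MPC1 (51.2 ± 12.6) came next and overlapped their neighbours, and SLC16A7 (19.8 ± 1.83) and LDHD (3.84 ± 1.12) were lowest. In DMEM, LDHB (621 ± 8.97 CPM per kilobase) and BSG (412 ± 50.7) were each above LDHA (150 ± 47.8) in all 3 libraries. MPC1 (79.7 ± 25.98), MPC2 (70.1 ± 3.81) and SLC16A1 (66.7 ± 3.24) followed, each overlapping the next in this order, and SLC16A7 (26.3 ± 9.87), SLC16A3 (13.1 ± 7.25) and LDHD (7.73 ± 1.88) likewise (SD, n = 3 throughout). SLC16A3 thus stood the sixth in RPMI and the eighth in DMEM, and MPC1 the seventh and the fourth. These positions shift with the length assumed: per kilobase of all annotated exons, SLC16A1 stood the third and LDHA the fifth in DMEM, and with the longest principal transcripts MPC1 stood the fifth in RPMI.

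Several relatives of the members were at or near 0. LDHC, LDHAL6A and LDHAL6B, further lactate dehydrogenase genes, had 1, 23 and 4 counts over all 6 libraries, and MPC1L and SLC5A8 had 0, which allows up to 0.0967 to 0.129 CPM in a library (3 counts, counting error only). Of 18 relatives 12 were tested and 0 passed by edgeR with or without the block or by DESeq2, with 2 at an unadjusted p under 0.05 and a median log2 fold change of 0.15. Those 2 with the smallest p were SLC16A13 (1.096 ± 0.35, edgeR adjusted p 0.172) and SLC16A5 (0.68 ± 0.25, edgeR adjusted p 0.221).

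Upstream of pyruvate, 16 of 17 glycolytic enzyme genes were tested. None passed without the block by edgeR, 11 had an unadjusted p under 0.05 where 17.7% of all genes did, 6 were lower with the block (HK2, ALDOC, TPI1, PGK1, ENO1 and ENO2) and 11 were lower by DESeq2. Their median log2 fold change was -0.73, against 0.01 over all genes tested, and 13 of 16 were below 0. PGK1, which makes ATP in glycolysis, had the smallest p, at 947 ± 327 and 400.0 ± 80.3 CPM (SD, n = 3 each, log2 fold change -1.24 ± 0.27, edgeR adjusted p 0.0808 without and 0.0175 with the block). PGAM1, phosphoglycerate mutase, had -0.55 ± 0.12 (edgeR adjusted p 0.0825 and 0.0532).

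Downstream, 12 genes of the pyruvate dehydrogenase complex and its regulators had a median of 0.20, with 10 above 0. None passed without the block, 6 had an unadjusted p under 0.05 (PDHA1, DLD, PDK4 and PDP1 above 0, PDK1 and PDK3 below), and PDK3 alone was lower with the block by edgeR, and PDK1 and PDK3 by DESeq2. The pair with the smallest p were the inhibitory kinases PDK3 (59.7 ± 9.79 to 38.8 ± 0.95 CPM, SD, n = 3 each, log2 fold change -0.62 ± 0.14, edgeR adjusted p 0.0866 without and 0.0495 with the block) and PDK1 (-0.51 ± 0.13, edgeR adjusted p 0.110 and 0.0711). PDK4, a further inhibitory kinase, had 1.29 ± 0.55 (edgeR adjusted p 0.279) and overlapped between media, and PDK2 had 0.33 ± 0.15 (edgeR adjusted p 0.304). Of 7 tested genes for carboxylation, transamination and malic enzymes all were above 0 (median 0.30), 0 passed without the block, 2 had an unadjusted p under 0.05, and 1, PCK2, passed with the block and by DESeq2. PCK2, mitochondrial phosphoenolpyruvate carboxykinase, had a log2 fold change of 2.22 ± 0.42 (edgeR adjusted p 0.0583 without and 0.0131 with the block), and ME1, cytosolic malic enzyme, 0.43 ± 0.14 (0.179 and 0.103).

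The malate-aspartate and glycerol phosphate shuttles carry the electrons of cytosolic NADH to mitochondria as an alternative to lactate formation. Of their 10 genes 7 were above 0 (median 0.26), and 0 passed by edgeR with or without the block or by DESeq2, with 4 at an unadjusted p under 0.05. GPD1L (0.48 ± 0.15, edgeR adjusted p 0.172) and GOT2 (0.35 ± 0.12, edgeR adjusted p 0.194) had the smallest p.

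**Figure D4:**
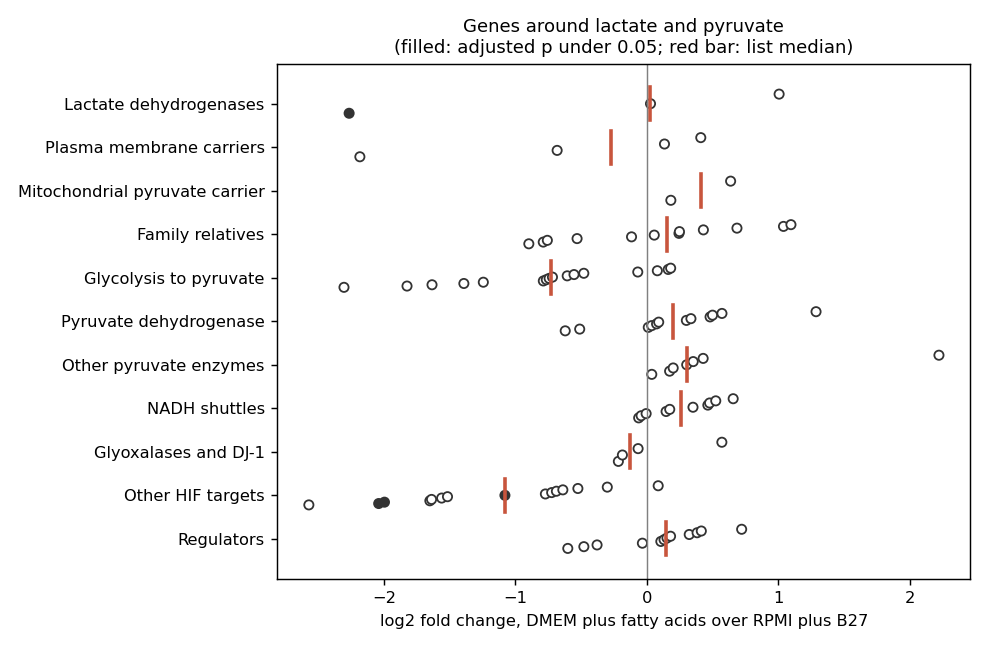
Fitted log2 fold change (horizontal axis) of each tested gene in 11 groups around lactate and pyruvate; points are genes and red bars are group medians. Points of glycolysis and of other HIF targets lie mostly left of 0 (medians -0.73 and -1.08), and filled points, with an adjusted p under 0.05 without the block, are LDHA, AK4, BNIP3 and P4HA2.

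HIF targets outside glycolysis stood beside LDHA and SLC16A3 in direction. Of 15 tested, 14 were below 0 (median -1.08), 3 fell without the block by edgeR, 8 with the block and 10 by DESeq2. Of all genes tested, 1.07%, 3.42% and 5.02% were called lower by these fits. An unadjusted p under 0.05 was found for 13 of the 15 and for 17.7% of all genes. AK4, a mitochondrial adenylate kinase, fell from 186 ± 18.8 to 46.6 ± 4.67 CPM (SD, n = 3 each, log2 fold change -1.995 ± 0.13, edgeR adjusted p 0.00478). BNIP3, a mitophagy receptor, had -2.04 ± 0.32 (edgeR adjusted p 0.0402), and P4HA2, a collagen prolyl hydroxylase subunit, -1.08 ± 0.19 (edgeR adjusted p 0.0480). The calls of BNIP3 and P4HA2 were lost without 5 and 6 of the 6 libraries in turn (edgeR adjusted p up to 0.134 and 0.168), and that of AK4 was kept without each. P4HA2 also lost it with scaling by total counts (0.051) and with at least 10 counts in every library (0.0566).

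Summed over 16 such targets, levels were 2667, 1675 and 1316 CPM in RPMI replicates 1 to 3 and 1269, 911 and 858 CPM in DMEM. VEGFA, a growth factor gene that did not pass (log2 fold change -0.30 ± 0.46, edgeR adjusted p 0.777), made up 490 CPM of this in DMEM replicate 1 and 207 CPM in RPMI replicate 3. Without it, a sum taken after its values were seen, levels were 1901, 1327 and 1109 CPM in RPMI and 779.6, 624 and 563 CPM in DMEM. The 6 libraries stood in the same order by either sum as by SLC16A3, but not as by LDHA. By LDHA, replicate 3 stood above replicate 2 in RPMI (1115 and 1069.6 CPM) and in DMEM (242 and 229 CPM). The part of HIF in the LDHA and SLC16A3 results was not tested. Of 12 tested regulators of these genes (HIF subunits, MYC and MAX, glucose-sensing factors and oestrogen-related receptors among them), 0 passed without the block by edgeR, 3 had an unadjusted p under 0.05, and 1 was higher with the block and by DESeq2 (median 0.14). That gene was ESRRG, an oestrogen-related receptor of oxidative muscle (81.0 ± 10.7 and 133 ± 22.997 CPM, SD, n = 3 each, log2 fold change 0.72 ± 0.16, edgeR adjusted p 0.0875 without and 0.0255 with the block). MLXIP, a glucose-sensing factor, had -0.48 ± 0.13 (edgeR adjusted p 0.125). HIF1A transcripts, whose protein is controlled mainly by degradation, were at 391 ± 133 and 428 ± 41.3 CPM (SD, n = 3 each, edgeR adjusted p 0.830). EPAS1, the other HIF alpha subunit gene listed, was lower in all 3 DMEM libraries without passing (19.9 ± 5.32 and 13.1 ± 0.547 CPM, SD, n = 3 each, log2 fold change -0.60 ± 0.21, edgeR adjusted p 0.201).

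Stromal and smooth muscle markers were also lower in DMEM. Of 12 fibroblast and stromal markers 11 were below 0 (median -2.84), and 6 fell without the block and 8 with it by edgeR. Of all genes tested, 1.07% were lower without the block and 3.42% with it. The markers were led by COL1A1, DCN, FBN1 and LOX at log2 fold changes of -2.72, -5.81, -3.25 and -3.72. DCN alone had 0 counts in a library. All 7 smooth muscle markers were below 0 (median -1.56), with LMOD1 passing without the block (-1.62) and LMOD1, CNN1 (-1.38, edgeR adjusted p 0.0399) and MYLK (-1.95, 0.0373) with it, and they summed to 1619 to 2068 CPM in RPMI and 361 to 1197 CPM in DMEM. Epicardial markers summed to 1716 to 2248 and 797 to 1022 CPM, with KRT7 (-5.50) and KRT8 (-1.10) passing among 5 tested without the block, those and TBX18 (-2.10) and KRT18 (-1.06) with it, and none at 0 counts in any library. KRT8 and KRT18, keratins of many epithelia, made up nearly all of that sum, and the other 5 markers summed to 14.4 to 37.0 CPM in RPMI and 1.34 to 3.05 CPM in DMEM. Leaving out 1 library in turn, LMOD1 and KRT8 lost the call each time (edgeR adjusted p 0.0511 to 0.0958 and 0.0543 to 0.123), DCN, FBN1 and LOX each kept it without RPMI replicate 3 alone (up to 0.109, 0.109 and 0.125 otherwise; LOX also lost it with at least 10 counts in every library, 0.0543), and COL1A1 and KRT7 kept it without RPMI replicate 1 or 3 (up to 0.108 and 0.0698 otherwise).

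Endothelial markers did not share a direction: TEK (-2.13) and EGFL7 (-1.27) were lower in all 3 DMEM libraries without passing by edgeR (adjusted p 0.0960 and 0.176) and passed by DESeq2 (0.0366 and 0.0309), and KDR was above 0. PECAM1, CDH5, VWF and ERG were not tested by edgeR and each had 0 counts in some library. They had only 12, 20, 9 and 11 counts over the 6 libraries. Their DESeq2 log2 fold changes were all below 0, at -1.97, -5.36, -0.53 and -4.46. The 7 genes summed to 55.1 to 249 CPM in RPMI and 119 to 471 CPM in DMEM, with most of these counts in KDR (136 ± 106 and 326 ± 186 CPM, SD, n = 3 each), the 1 endothelial marker that passed with the block (1.49, edgeR adjusted p 0.0245). In DMEM, replicate 1 had the lowest stromal sum (758 CPM against 1957 and 1808) and the highest LDHA and SLC16A3. In RPMI, replicate 1 had the highest stromal sum, LDHA and SLC16A3. An order of 3 libraries in each medium is a description only. The part of these other cell types in the LDHA and SLC16A3 results was not tested.

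**Figure D5:**
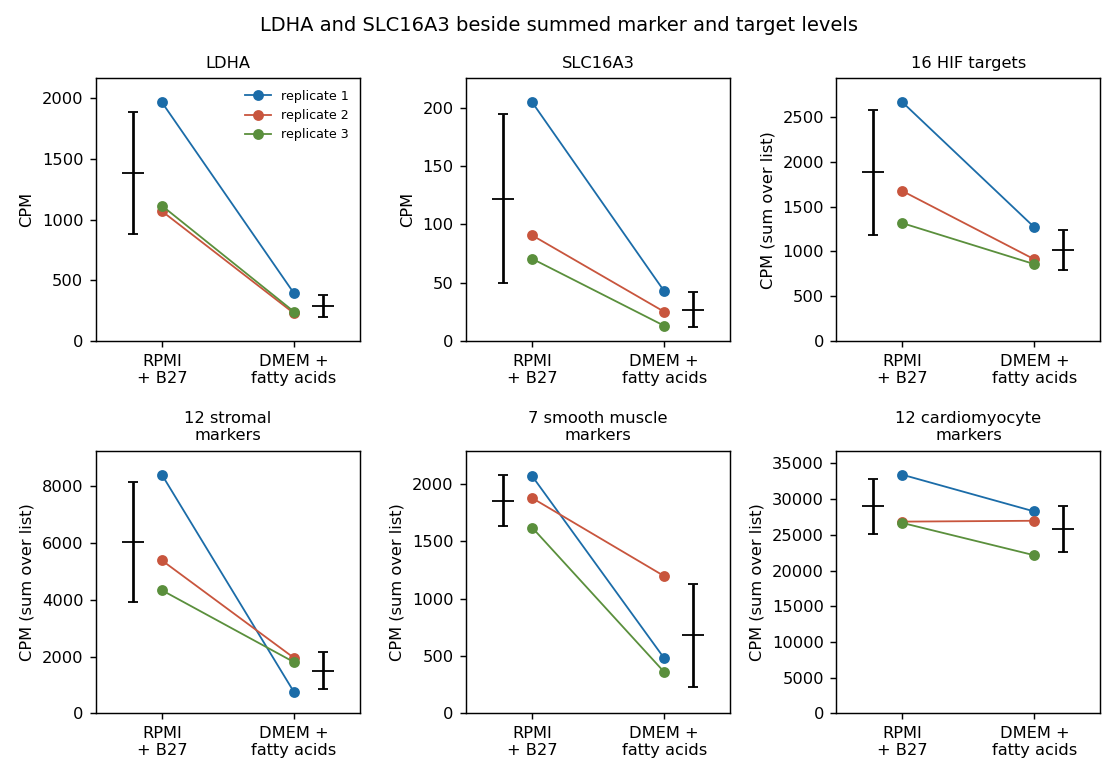
LDHA, SLC16A3 and summed levels of 16 HIF targets, 12 stromal, 7 smooth muscle and 12 cardiomyocyte markers (CPM, linear axis from 0) by medium. Points are libraries, lines join the same replicate number, and black marks are mean ± SD. Replicate 1 is the highest for LDHA in both media (394 CPM in DMEM). For the stromal sum it is the highest in RPMI and the lowest in DMEM (758 CPM).

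The genes most like LDHA were sought among 10027 other genes averaging 10 CPM or more, by Pearson's r of log2 CPM over the 6 libraries. They were CNN3 (r 0.998), ARHGAP45 (0.996), BCL2L2 (0.993), BNIP3 (0.993) and GGCX (0.993), with log2 fold changes from -2.39 for ARHGAP45 to -0.39 for GGCX. With 6 libraries in 2 media, r is high for any gene that separates the media and keeps the order of replicates, so it describes likeness in these libraries only. ARHGAP45 showed the same high replicate 1 as LDHA, at 139, 61.2 and 62.4 CPM in RPMI and 21.96, 14.5 and 13.8 CPM in DMEM. The genes most like LDHB were UBXN1 (r 0.989), PLA2G12A (0.986), ZNF703 (0.981), BLVRB (0.980) and ZNF277 (0.980), of which 0 passed between media (log2 fold changes 0.03 to 0.15, smallest edgeR adjusted p 0.753). That follows from how they were picked, since LDHB itself did not pass.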

How the data were processed

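RNA was extracted on columns with DNase treatment and made into stranded mRNA libraries, per the labels' protocols. The submitters' processing notes name STAR, HTSeq and hg38; versions, gene annotation and strand setting are not given in the sources used here. The deposited values are unnormalized read counts, listed by gene symbol for each library. Summary rows for unassigned, ambiguous and multiply aligned reads (5.44% to 7.57%, 3.90% to 4.15% and 3.05% to 4.10% of each file) stayed out of library sizes and tests. Reads of genes with near-identical copies can fall among the multiply aligned reads.

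The test between media used edgeR 4.0.16 (R 4.3.3; filterByExpr, minimum count 10 and minimum total count 15, TMM, quasi-likelihood test, 6 libraries, no covariates, Benjamini-Hochberg over 16107 genes, threshold 0.05). SEs follow from the F statistic. Deviations from the medium's mean correlated at 0.313, 0.428 and 0.365 between libraries with the same replicate number in the titles and at -0.242 to -0.136 otherwise. As deviations cancel within a medium, the negative values follow largely from the positive ones and are no separate evidence. The numbers were treated as pairing the libraries, and the fit with the number as a block is printed where it changes a call. This pairing was taken from the same data as the blocked p-values. Shares were compared by exact two-sided permutation tests (scipy 1.17.1). Wilson intervals cover counting error only. Alternatives included DESeq2 1.42.0, other scalings and filters, and leaving out each library. Gene positions and transcript lengths came from GENCODE v29, which may differ from the authors' annotation; principal transcripts are those tagged so by APPRIS, at their median length.

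The members, the 19 gene lists and the tests were chosen with earlier results of these data known. Named genes are all 9 members; in each other list the called genes (up to 4) or, failing 2 calls, the smallest p; and the 5 genes most correlated with LDHA and LDHB (log2 CPM, prior count 2). HIF1A, EPAS1, VEGFA, PDK2, PDK4, KDR, TDGF1 and genes named beside counts in the blocked or DESeq2 fits were named outside this rule after their values were seen. Hepatic endoderm markers had a median log2 fold change of -1.27 (4 tested, 0 called by edgeR without the block or by DESeq2, 0 at an unadjusted p under 0.05, AFP lower with the block), led by AFP (-3.80) and APOA1 (-0.73). AFP stood at 0, 12.7 and 62.8 CPM in RPMI replicates 1 to 3. Without RPMI replicate 3 its log2 fold change was -1.82 (edgeR adjusted p 0.639). Undifferentiated-cell markers had a median of -0.36 (4 tested, 0 called by any fit, 0 at an unadjusted p under 0.05), led by DPPA4 (-0.82) and POU5F1 (-1.36). Of 12 cardiomyocyte markers (median -0.08), 0 were called by edgeR, 3 had an unadjusted p under 0.05, and 2 were lower with the block, ACTN2 (-1.05) and MYH7 (-1.32); DESeq2 called MYH6 higher and the same 2 lower. Of 3 endothelial markers tested, 0 were called by edgeR without the block, and KDR was higher with it. Without the block 2 had an unadjusted p under 0.05, and DESeq2 called both of these lower. CNN1, a smooth muscle marker, had -1.28 without the block (edgeR adjusted p 0.124). Of 14 pseudogene, antisense and divergent transcripts listed, only SLC16A1-AS1 was matched.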

Additional observations from a re-analysis of the deposited data

How the results depend on the processing

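Without the replicate block 1 of the 9 genes and 219 of all genes were called. With the replicate block these became 5 and 770, and by the DESeq2 Wald test 4 and 1179, among the same 16107 genes. Over all genes with any count, DESeq2 called 1237. On that wider set edgeR, with no filter on low counts, called 3 of the 9 genes and 539 of all genes. A minimum of 10 counts in every library gave 119 of all genes. Leaving out 1 library gave 0 to 1 of the 9 genes (4 to 6 at an unadjusted p under 0.05) and 3 to 131 of all genes; such fits have fewer samples. Scaling by total counts alone moved the median of all fitted log2 fold changes to 0.119, and 63.4% of its calls were lower, against 78.5%. Each of the 9 genes kept its direction in all 12 alternatives, except LDHB, which was -0.020 without RPMI replicate 3 and 0.137 at most; without 1 library its range was -0.020 to 0.096. Among other genes, none of them called, the sign turned without an RPMI library for SLC16A1-AS1 (-0.726 to 0.075 over the libraries left out), UBXN1 (-0.051 to 0.15), PLA2G12A (-0.020 to 0.164), BLVRB (-0.119 to 0.412) and ZNF277 (-0.172 to 0.318). The LDHA share difference was -39.5 to -32.6 percentage points, the SLC16A3 share difference -15.9 to -7.35 and the MPC1 share difference 4.03 to 11.0 when 1 library was left out. Per kilobase of principal transcript, a setting chosen after seeing the data, they were -33.9, -18.1 and 7.33, per kilobase of exon -29.1, -8.23 and 7.32, and within replicate pairs -36.1, -12.1 and 7.01. Adding pseudogene counts to LDHA and LDHB was not run, as no such rows were matched.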
